A study of Homo sapiens with 42 samples.

Results

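The intrinsically disordered region (IDR) of HIF-2α was replaced by that of HIF-1α while the structured, DNA-binding part of the protein was kept, and the effect on the transcriptome of 786-O cells was read by poly-A RNA-seq. The comparison uses 6 of the 42 libraries of the series, chosen by their labels: 3 from cells expressing the chimera HIF-2α/1α and 3 from cells expressing full-length HIF-2α, all from batch 2. The 6 therefore differ in the IDR of the transgene, and each construct stands for 1 stable line. 786-O is a clear cell renal cell carcinoma (ccRCC) line that lacks functional VHL, so that its own HIF-2α is stable at normal oxygen, and it makes no functional HIF-1α. HIF-2α/1α joins amino acids 1 to 365 of HIF-2α to amino acids 364 to 826 of HIF-1α. Both proteins carried V5 and HaloTag at the N-terminus and were expressed from stably integrated transgenes driven by the L30 promoter. The endogenous HIF-2α was left in place, so every line also held that protein, and the lines were selected with puromycin with no cloning step described. 3 further groups of batch 2 serve as reference, with 3 libraries each: unmodified wild-type (WT) cells, a line with full-length HIF-1α, and a line with the opposite chimera HIF-1α/2α (amino acids 1 to 363 of HIF-1α and 366 to 870 of HIF-2α), both from the same promoter and with the same tags. 3 HIF-1α and 3 HIF-2α libraries of batch 1, with the same L30-driven constructs but another RNA extraction and library kit, serve as a second reference.

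HIF-α proteins are the oxygen-regulated subunits of the hypoxia-inducible factors. Each pairs with HIF-1β, the product of ARNT, through its bHLH and PAS domains, and the dimer binds DNA at the core letters ACGTG or GCGTG. The 2 isoforms are alike in these structured domains and diverge in the long C-terminal IDR, which holds the oxygen-dependent degradation domain and the activation domains. HIF-1α is best known for glycolytic and mitophagy genes, and HIF-2α, the driver isoform in ccRCC, for growth factor, angiogenic and cyclin D1 genes. With the structured domain held constant, the comparison asks which transcripts follow the IDR.

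The 6 libraries held between 76366799 and 100851615 counted reads, and their TMM scaling factors lay between 0.963 and 1.03. Mitochondrial transcripts took between 1.17% and 1.55% of the reads. Over all genes tested, the Euclidean distance between libraries on the log2 CPM scale was 124.5 ± 2.73 (SD, 3 pairs) within HIF-2α/1α and 123.2 ± 1.47 (3 pairs) within HIF-2α, against 148.4 ± 4.39 (9 pairs) between the lines. The HIF-2α/1α libraries lay 126.1 ± 4.39 (9 pairs) from those of HIF-1α, which has the same IDR, and 142.9 ± 1.39 (9 pairs) from WT. Within HIF-1α the distance was 113.4 ± 0.949 (3 pairs). The distance from the chimera to HIF-1α was thus near that within the chimera and above that within HIF-1α. Such distances over all genes do not show that single genes were alike in the 2 lines. The renal markers were present: PAX8, a kidney lineage transcription factor, stood at 22197 ± 680.0 normalized counts (mean ± SD, n = 3) with HIF-2α/1α and 19526 ± 793 with HIF-2α, and the mesenchymal filament gene VIM at 244460 ± 8075 and 267950 ± 12207. The 20 markers of blood, endothelial, liver, neural, muscle and fibroblast cells summed to between 212 and 291 normalized counts in the HIF-2α/1α libraries and between 192 and 228 in the HIF-2α libraries. CD3E, MYH7 and TYR were at 0 in all 6, and 15 of the 20 could be tested (list median -0.19). LUM, a proteoglycan of fibroblasts, was the 1 that was called, at 54.1 ± 25.1 and 19.0 ± 6.83 normalized counts. Its libraries overlapped, and the call was lost with DESeq2 (adjusted p = 0.0555) and without HIF-2α/1α replicate 2 or 3 or HIF-2α replicate 2 or 3 (adjusted p between 0.0173 and 0.0363).

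The transgenes can be seen in HIF1A and EPAS1, the genes of HIF-1α and HIF-2α, since reads of a transgene count on the gene that it copies. HIF1A gave 9706, 9556 and 9613 normalized counts in the HIF-2α/1α libraries, 839.7, 866 and 1101 in the HIF-2α libraries and 261, 306 and 313 in WT. EPAS1 gave 21983, 20791 and 19460 with the chimera, 42909, 42384 and 42330 with HIF-2α and 11955, 12370 and 13537 in WT. Both lines therefore carried the transcript that their label names, and no library of one line overlapped with the other for either gene. ARNT, the shared partner, was not called (log2 change -0.22, SE 0.07, adjusted p = 0.0119). Per codon of transgene, the excess over WT was 34.4 ± 0.368 normalized counts for HIF-2α, and 22.3 ± 3.46 (EPAS1 part) or 20.2 ± 0.163 (HIF1A part) for HIF-2α/1α (SD, n = 3). By this estimate the HIF-2α transcript stood at 1.54 to 1.71 times that of the chimera. This difference in dose runs with every comparison of these lines, and its part in the results was not tested. The measure is rough, because it takes the endogenous genes as they are in WT. Both genes differed from WT in a line whose transgene does not copy them. EPAS1 stood at 16360 ± 1137 with HIF-1α against 12621 ± 820 in WT. HIF1A stood at 936 ± 144 with HIF-2α against 293 ± 28.1 in WT. The true ratio may therefore lie outside the range given. In the HIF-1α/2α line the same estimate gave 26.0 ± 1.72 from HIF1A and 76.8 ± 6.12 from EPAS1, and full-length HIF-1α gave 15.6 ± 0.599.

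**Figure D1:**
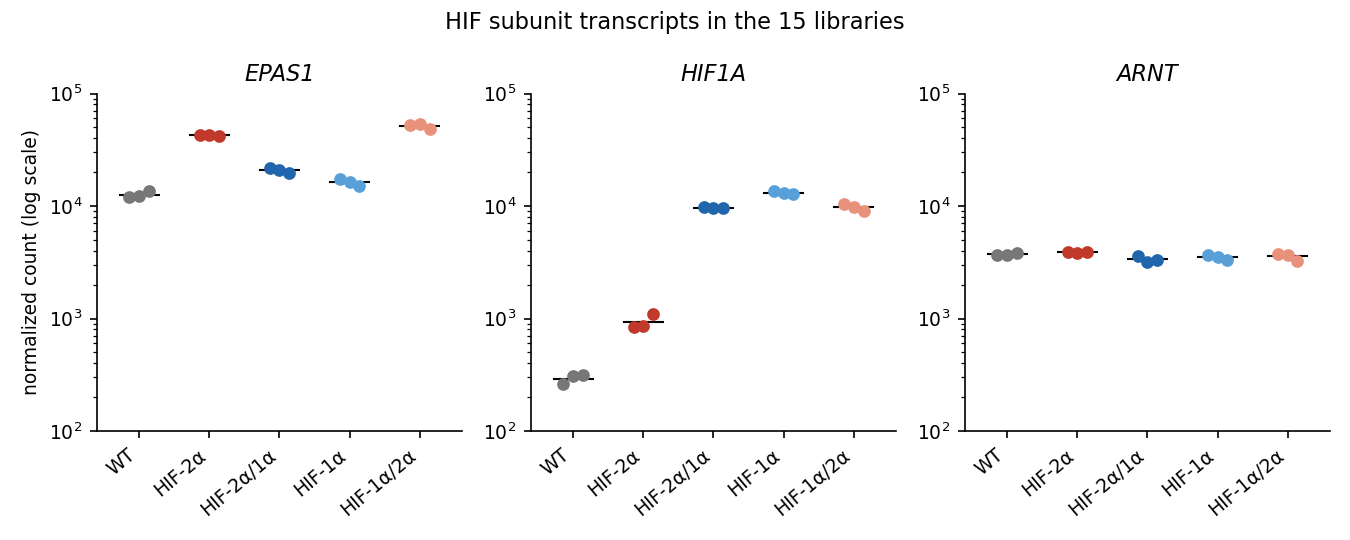
Normalized counts (log scale) of EPAS1, HIF1A and ARNT in the 15 libraries of batch 2; each point is 1 library and the bar is the mean of 3. HIF1A stood at 9625 with HIF-2α/1α against 936 with HIF-2α, EPAS1 at 20745 against 42541, and ARNT lay between 3363 and 3902.

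Between the HIF-2α/1α and HIF-2α lines, 915 of 28724 genes tested differed (3.19%). They were called at an adjusted p of at most 0.01 and a change of at least 2-fold in edgeR's quasi-likelihood test. HIF1A and EPAS1, which the transgenes copy, are among them. With HIF-2α/1α, 399 genes were higher (1.39%) and 516 were lower (1.8%) than with HIF-2α. At least 4-fold changes were found for 137 of the higher and 208 of the lower genes. The groups did not overlap for all but 30 of the 915, which a call at these thresholds makes likely, so it adds no separate support. The median change over all genes tested was -0.00496 on the log2 scale. Among 15805 protein-coding genes 321 were higher and 372 lower (4.38% called), and among 6769 lncRNA genes 55 were higher and 115 lower (2.51%). In these bulk samples, fewer cells that express a gene and less of its RNA in each cell cannot be told apart. The methods of the study call the 3 libraries of a group biological replicates and do not say at which step they were separated, so the p-values measure the spread between 3 libraries of 1 line.

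**Figure D2:**
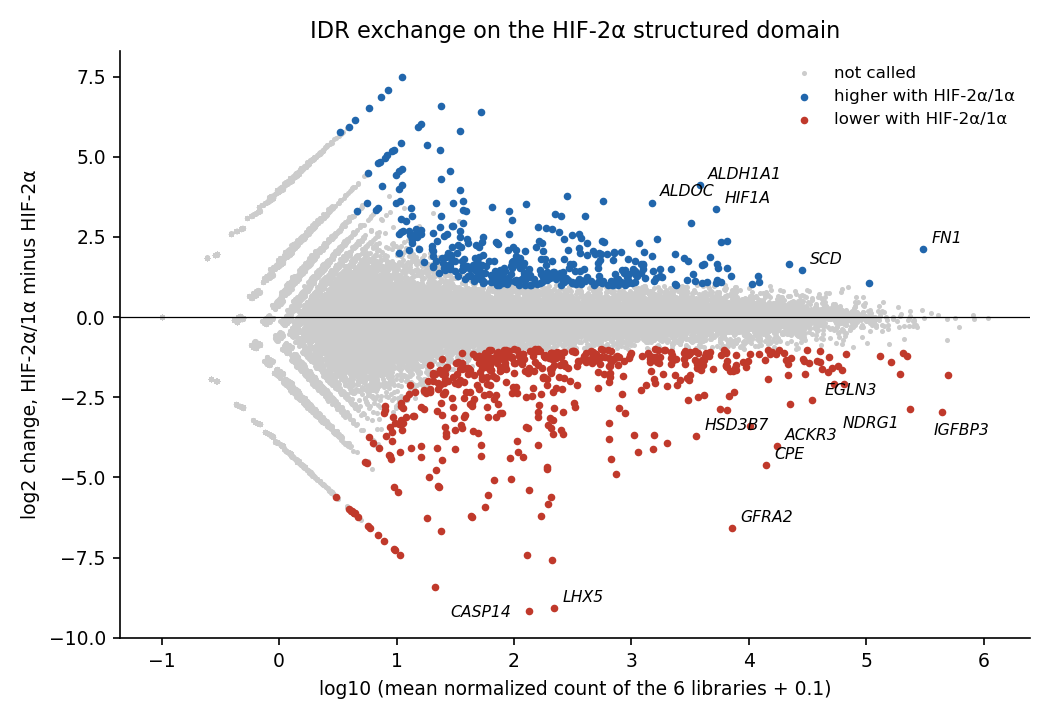
The log2 change of each of 28724 genes, HIF-2α/1α minus HIF-2α (vertical), against its mean normalized count over the 6 libraries (horizontal, log10). The 399 genes called higher are blue and the 516 called lower are red; the lower genes reach further from 0, with CASP14 and LHX5 at the bottom and ALDH1A1 among the highest of the abundant genes.

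The genes that were lower with HIF-2α/1α stood above WT with HIF-2α: over the 516 genes the median change against WT was 2.37 with HIF-2α and 0.538 with HIF-2α/1α. In the same fit HIF-2α had 1566 genes above WT (5.45% of 28724) and 611 below (2.13%), and HIF-2α/1α had 857 above (2.98%) and 146 below (0.508%). These comparisons share libraries with the main one and are given as a description. CPE, carboxypeptidase E of neuroendocrine secretory granules (chr4:165361194-165498547 in hg38, GENCODE release 44), gave 27373, 28968 and 24107 normalized counts in the HIF-2α libraries and 1087, 1190 and 1004 in the HIF-2α/1α libraries, a 24.5-fold difference (log2 change -4.61, SE 0.09, adjusted p = 3.07e-36). WT stood at 214 ± 27.8 (SD, n = 3), so the chimera raised CPE only to a small part of the HIF-2α level. HSD3B7, an enzyme of bile acid synthesis (chr16:30985207-30989147), gave 7125, 6646 and 6182 with HIF-2α and 498, 553 and 470.4 with HIF-2α/1α (log2 change -3.71, SE 0.09, adjusted p = 2.53e-33). Here the chimera was near the WT level of 544 ± 75.3 (log2 change against WT -0.09). PLXNA2, a semaphorin receptor (chr1:208022242-208244384), gave 7169, 7268 and 6679 with HIF-2α and 1298, 1286 and 1335 with HIF-2α/1α (log2 change -2.43, SE 0.08, adjusted p = 2.70e-28), against 443 ± 49.6 in WT. TGFA, the ligand TGF-α that acts on EGFR, gave 86179, 89551 and 80467 and 30722, 30248 and 28705 (log2 change -1.51, SE 0.06, adjusted p = 2.32e-24), against 15414 ± 504 in WT. In all 4 genes every HIF-2α library exceeded every HIF-2α/1α library.

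By size, the 10 leading genes on this side with a mean of at least 50 normalized counts and no overlap were CASP14, LHX5, SYN3, AC005906.2, GFRA2, NKD2, DOC2A, ALPG, AC079466.1 and SH2D1B. Except for GFRA2, the mean of each with the chimera was at most 8.52 normalized counts, the value of AC079466.1. LHX5, a LIM homeobox factor of the developing brain, gave 444, 427 and 447 normalized counts with HIF-2α and 0, 0 and 2.22 with HIF-2α/1α, a ratio of 639 (exact 95% counting interval 177 to 5280). For CASP14, a caspase of the skin barrier, the same ratio was 788 (exact 95% counting interval 141 to 31200), with 311, 179 and 317 against 0, 0 and 1.11. AC005906.2 had a ratio of 188 (exact 95% counting interval 73.1 to 691) and DOC2A, a calcium sensor of vesicle release, one of 64.4, with the lower end of its interval at 27.3. These intervals cover counting error only. A fitted change between the lines is not given where no library of one line held more than 3 reads. GFRA2, a receptor of the GDNF family, was both strongly changed and abundant, with 14645, 14109 and 13942 against 149, 157 and 139 (log2 change -6.58, SE 0.10, adjusted p = 1.72e-39) and 5.84 ± 5.35 in WT. SYN3, a synapsin, changed by -7.58 (SE 0.35), NKD2, an inhibitor of Wnt signalling, by -6.20, AC079466.1 by -5.60 and SH2D1B, an adaptor of natural killer cells, by -5.54 (SE 0.34). SYN3 and SH2D1B had at most 4 reads in any chimera library, so the size of their changes is uncertain. ALPG, an alkaline phosphatase, changed by -5.82; it is nearly identical to ALPP, so that its share of reads is uncertain.

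Among the genes that were higher with HIF-2α/1α, 2 patterns against WT are shown. In the first, the chimera took a gene further above WT than HIF-2α did. ALDOC, the aldolase C of glycolysis (chr17:28573115-28576948), gave 3296, 2896 and 2102 normalized counts with HIF-2α/1α and 276, 266 and 154 with HIF-2α, 11.9-fold apart (log2 change 3.57, SE 0.15, adjusted p = 8.11e-24), and 239.8, 213 and 322 in WT. PPFIA4, a liprin of synaptic and adhesion sites known as a HIF-1α target (chr1:203026491-203078740), gave 2658, 3328 and 2437 against 476, 582 and 508 (log2 change 2.43, SE 0.11, adjusted p = 9.86e-22), and 107 ± 31.0 in WT. SPRY1, an inhibitor of receptor tyrosine kinase signalling, gave 240.1, 218 and 247 against 23.8, 21.9 and 15.3 (log2 change 3.51, SE 0.25, adjusted p = 1.03e-15), and 4.85 ± 1.71 in WT. For all 3, the lowest chimera library was above the highest HIF-2α library, which for ALDOC and SPRY1 was a condition of being named. GPRC5C, an orphan receptor, was raised by both proteins, to 589 ± 158 with HIF-2α/1α and 130.2 ± 34.8 with HIF-2α from 8.1 ± 4.34 in WT (change between the lines 2.17). DNAH11, an axonemal dynein, changed by 3.23 and stood at 405 ± 41.4 with the chimera, 43.2 ± 4.9 with HIF-2α and 53.8 ± 8.28 in WT.

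In the second pattern, HIF-2α had lowered a gene well below WT and the chimera had not. ALDH1A1, a retinaldehyde dehydrogenase (chr9:72900671-73080442), led the higher genes with a mean of at least 50 normalized counts and no overlap, with 7508, 6959 and 7208 with the chimera, 369.8, 399 and 481 with HIF-2α and 4874, 5201 and 6989 in WT (log2 change 4.12, SE 0.11, adjusted p = 2.55e-31). KCNJ16, a renal potassium channel subunit, gave 991, 1258 and 916 against 76.3, 99.3 and 82.2 (log2 change 3.62, SE 0.14, adjusted p = 2.05e-24), and 1218 ± 135 in WT. ADAMTS15, a matrix protease, gave 460.1, 487 and 402 against 43.6, 43.9 and 63.4 (log2 change 3.17, SE 0.19, adjusted p = 1.08e-17), and 310.4 ± 81.7 in WT. The chimera left these 3 genes near WT, while HIF-2α took them to a small part of it. CLDN2, the pore-forming claudin of the proximal tubule, combined both patterns: 525 ± 59.1 with the chimera, 38.6 ± 10.9 with HIF-2α and 155 ± 48.5 in WT (log2 change 3.77, SE 0.25, adjusted p = 1.59e-16). Other genes followed neither pattern and stayed below WT with both proteins. AOAH, which degrades bacterial lipopolysaccharide, changed by 3.42 between the lines and by -1.15 from WT to the chimera, and the changes from WT to the chimera of SCD and EREG, described below, were -1.07 and -1.05. AL161431.1, a lncRNA, was not of this kind and changed by 3.30 between the lines. It stood at 164 ± 28.5 with the chimera, 16.65 ± 11.9 with HIF-2α and 83.4 ± 14.3 in WT. Over all 399 higher genes, the median change against WT was 0.136 with HIF-2α/1α and -1.5 with HIF-2α.

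**Figure D3:**
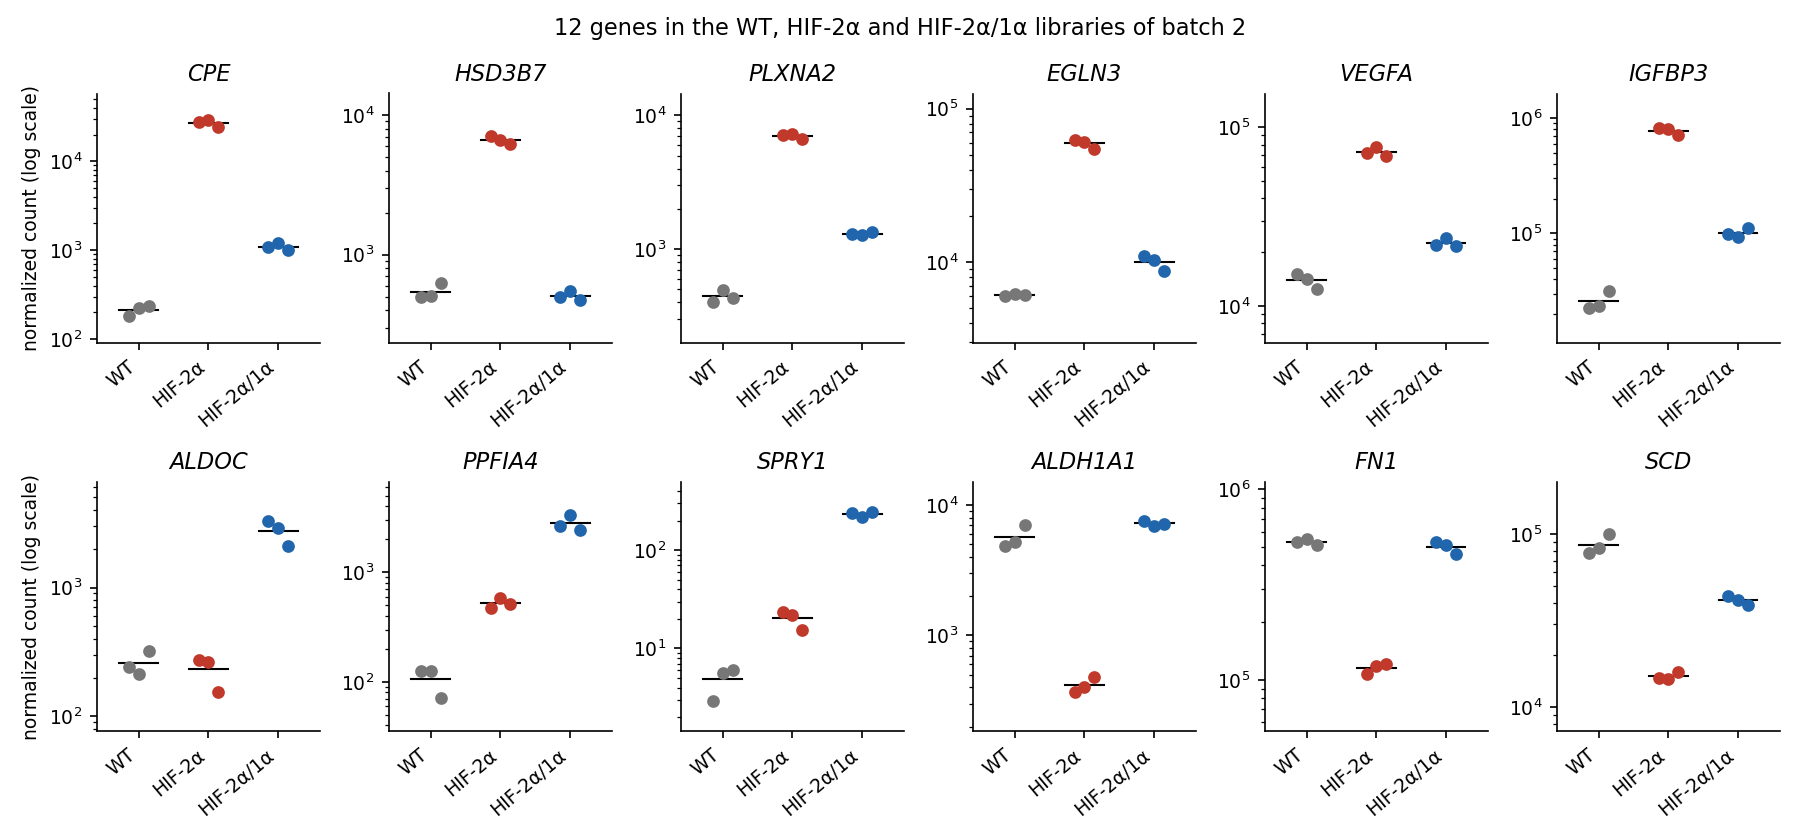
Normalized counts (log scale) of 12 genes in the WT, HIF-2α and HIF-2α/1α libraries of batch 2; each point is 1 library and the bar is the mean of 3. In the upper row HIF-2α stands above both other groups; in ALDOC, PPFIA4 and SPRY1 the chimera stands above both; in ALDH1A1, FN1 and SCD the HIF-2α libraries lie below both.

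Among the oxygen sensors and HIF subunits, 2 of 10 members tested were lower and 1 higher (list median -0.27), and EPAS1 and HIF1A, which the transgenes copy, are 2 of these 3. The other was EGLN3, the prolyl hydroxylase PHD3 that HIF itself induces, which gave 62858, 61035 and 54650 normalized counts with HIF-2α and 10927, 10383 and 8755 with HIF-2α/1α (log2 change -2.57, SE 0.08, adjusted p = 2.90e-29), and 6062 ± 90.4 in WT. Without HIF-2α/1α replicate 3, EPAS1 changed by -0.98 and was no longer past the 2-fold limit. Of 18 classic hypoxia response genes, 5 were lower and 1, PPFIA4, was higher (list median -0.14). NDRG1, a hypoxia and differentiation gene, was the most abundant of the 5, with 438300, 414320 and 387000 against 64410, 57989 and 47321 (log2 change -2.87, SE 0.08, adjusted p = 5.13e-31). DDIT4, an inhibitor of mTORC1, stood at 47258 ± 3286 with HIF-2α, 17618 ± 3192 with HIF-2α/1α and 22741 ± 2786 in WT, a change of -1.42. LOX, a lysyl oxidase that crosslinks collagen, stood at 11554 ± 2565 with HIF-2α, 4078 ± 326 with the chimera and 1234 ± 51.4 in WT. The list counts here and below are small, and leaving out 1 library moved them by at most 3 members. They stand beside 3.19% called of all genes tested and 4.38% of protein-coding genes, so a list with few called members can lie near that share.

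Of 18 angiogenic factors and receptors 5 were lower with the HIF-1α IDR and 1, PDGFD, was higher (median -0.27). The call of PDGFD was lost without HIF-2α/1α replicate 2 or 3 or HIF-2α replicate 1 or 2. VEGFA, the main angiogenic ligand, gave 72151, 77295 and 69140 normalized counts with HIF-2α and 21924, 23896 and 21578 with HIF-2α/1α (log2 change -1.70, SE 0.06, adjusted p = 6.31e-27), and 13902 ± 1306 in WT. PGF, a second ligand of the VEGF family, gave 3375, 3061 and 2257 and 234, 234 and 209.7 (log2 change -3.68, SE 0.13, adjusted p = 1.11e-26), and 43.1 ± 13.9 in WT. EDN1, the vasoconstrictor endothelin-1, gave 4498, 3856 and 6447 and 1356, 921 and 1562 (log2 change -1.95, SE 0.15, adjusted p = 1.04e-14). Each of the 3 ligands was higher in every HIF-2α library. ANGPTL4, a secreted inhibitor of lipoprotein lipase, was raised above WT by both proteins, to 2243 ± 365 with HIF-2α and 698 ± 97.8 with HIF-2α/1α from 56.2 ± 23.4. ADM, the vasodilator adrenomedullin, was the last of the 5.

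The glycolytic enzymes, which are textbook HIF-1α targets, moved little: ALDOC alone of 16 passed the 2-fold limit (list median 0.06, over all genes -0.00496). Without that limit, 7 of the 16 were higher and 2 lower at an adjusted p of at most 0.01, beside 2468 higher and 2154 lower of all 28724 genes. PGK1, phosphoglycerate kinase, gave 95273, 88964 and 88286 with HIF-2α/1α and 74342, 68302 and 69465 with HIF-2α, a change of 0.36 (SE 0.04, adjusted p = 1.14e-08) that was below the 2-fold limit although the groups did not overlap. ENO1, enolase, changed by 0.07 (adjusted p = 0.364). The glucose transporters GLUT1 and GLUT3 were lower with the chimera: SLC2A1 stood at 130310 ± 10016 against 283780 ± 13559 (change -1.12) and SLC2A3 at 2274 ± 148 against 4721 ± 145 (change -1.05), the latter counted beside its near copy SLC2A14. They were the 2 called of 11 transporters and switch kinases, whose median was 0.26. In glycogen metabolism 2 of 11 were lower (median 0.05), PPP1R3B, whose call was lost without HIF-2α replicate 3, and PPP1R3C, a subunit that targets phosphatase 1 to glycogen, at 499.9 ± 16.0 against 2160 ± 219.8 (log2 change -2.11, SE 0.10, adjusted p = 1.90e-21). Of 8 carbonic anhydrases and pH regulators (median 0.14), CA12, a membrane carbonic anhydrase, was lower (20936, 20005 and 20645 against 91299, 91634 and 76987, log2 change -2.08, SE 0.06, adjusted p = 1.53e-30), and CA2, the cytosolic form, was higher (1408, 1216 and 1297 against 530.4, 548 and 563, log2 change 1.25, SE 0.09, adjusted p = 5.24e-15). Of 9 mitophagy and respiratory chain genes (median 0.14) 1 was called, MXI1, an antagonist of MYC, at 1845 ± 165 against 5597 ± 618 (log2 change -1.60, SE 0.09, adjusted p = 2.83e-19).

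Growth factors and cell cycle drivers were split by their members. TGFA, EGFR, CCND1 and CDKN1C were the 4 lower of 16 tested, and AREG and EREG the 2 higher (list median 0.02). CCND1, cyclin D1, gave 93798, 95115 and 89232 normalized counts with HIF-2α and 42934, 41168 and 41156 with HIF-2α/1α (log2 change -1.15, SE 0.05, adjusted p = 2.77e-24), and 33863 ± 1036 in WT. CDKN1C, an inhibitor of cyclin-dependent kinases, stood at 77.0 ± 1.72 and 11.3 ± 8.49 (log2 change -2.77, SE 0.39, adjusted p = 2.31e-07). EGFR, named after its values were seen because it is the receptor of TGF-α, changed by -1.05 (adjusted p = 2.62e-18), and by -0.99 without HIF-2α/1α replicate 3. AREG and EREG, which are also ligands of EGFR, went the opposite way from TGFA. AREG, amphiregulin, gave 496, 428 and 689 with the chimera, 62.5, 84.3 and 129 with HIF-2α and 950.5, 1070 and 837 in WT (log2 change 2.56, SE 0.19, adjusted p = 1.09e-14). EREG, epiregulin, gave 9951, 10635 and 12034, 1772, 1824 and 2640 and 23594, 24559 and 19180 in the same order (log2 change 2.39, SE 0.09, adjusted p = 8.83e-25). Both were thus lowest with HIF-2α and highest in WT. Of 25 proliferation and DNA replication genes none was called by edgeR or DESeq2, and the most distant of them changed by -0.221 (list median -0.01). By edgeR 8 of the 25 had an unadjusted p under 0.05, beside 8918 of all 28724 genes tested. MKI67, the Ki-67 marker, stood at 52113 ± 1212 with the chimera and 58236 ± 2986 with HIF-2α.

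Secreted and matrix genes held some of the most abundant changes. IGFBP3, a carrier of insulin-like growth factors, gave 816720, 804780 and 719130 normalized counts with HIF-2α and 98540, 93904 and 110500 with HIF-2α/1α (log2 change -2.95, SE 0.07, adjusted p = 3.66e-32), and 25859 ± 5008 in WT. IGFBP5, of the same family, gave 1628, 1534 and 1174 and 48.5, 41.4 and 56.6 (log2 change -4.90, SE 0.20, adjusted p = 2.53e-24). CCN3, a matricellular protein, went the other way, at 199.9 ± 20.6 with HIF-2α/1α and 71.1 ± 22.1 with HIF-2α (log2 change 1.5, SE 0.24, adjusted p = 2.61e-06). These 3 were the called members of 13 (median -0.15). Of 24 plasminogen and matrix protease genes 3 were lower and 2, MMP7 and MMP13, higher (median 0.03), with MMP7 lost without HIF-2α replicate 1. TIMP3, a metalloprotease inhibitor, stood at 184 ± 16.8 with HIF-2α and 5.36 ± 1.34 with the chimera (change -5.04). MMP13, collagenase 3, gave 763, 809 and 729 with the chimera against 204, 149 and 199.5 (change 2.05), while ADAMTS9 changed by -1.38. FN1, fibronectin, was the most abundant gene on the higher side that is named here, with 529900, 509850 and 455710 with the chimera, 107640, 117900 and 120890 with HIF-2α and 530710, 546510 and 510260 in WT (log2 change 2.11, SE 0.05, adjusted p = 1.83e-33). FN1 and CDH6, a kidney cadherin (change 1.09), were the 2 called of 18 mesenchymal and epithelial markers (median 0.27). Of 30 collagen chains 3 were lower and 1, COL9A2, higher (median -0.04), and the call of COL9A2 was lost without HIF-2α/1α replicate 1 or 3 or HIF-2α replicate 2 or 3 and in a fit of the 6 libraries alone. COL23A1, a membrane collagen, had 105, 68.1 and 86.9 with HIF-2α and 0, 1.72 and 1.11 with HIF-2α/1α, a ratio of 84.9 (exact 95% counting interval 28.7 to 415), and COL12A1 changed by -1.76.

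Semaphorins and other axon guidance genes moved both ways, with 5 of 47 higher and 4 lower (median -0.11). SEMA3A and SEMA3F, secreted semaphorins, were higher at 631 ± 85.6 against 114 ± 19.6 (change 2.47) and 3726 ± 596 against 956 ± 71.3 (change 1.96), while the membrane-bound SEMA5B was lower at 878 ± 261 against 5230 ± 327 (change -2.57). Of 16 neuroendocrine granule genes CPE was lower, and PTPRN, a granule membrane phosphatase-like protein known as IA-2, was higher (list median -0.16) at 58.0, 49.1 and 22.2 against 4.96, 3.46 and 5.87 (log2 change 3.15, SE 0.48, adjusted p = 9.69e-07). In steroid, bile acid and retinoid metabolism 2 of 23 were higher and 2 lower (median 0.22). Beside HSD3B7 and ALDH1A1, these were DHRS9, a retinol dehydrogenase, at 54.1 ± 13.8 against 2.23 ± 2.36 (change 4.55), and RARA, a retinoic acid receptor (change -1.09). Of 19 lipid droplet and fatty acid genes 3 were higher and 1 lower (median 0.21). SCD, the stearoyl-CoA desaturase, gave 43796, 41677 and 38766 with the chimera, 14675, 14561 and 15984 with HIF-2α and 77747, 82979 and 99482 in WT (log2 change 1.46, SE 0.06, adjusted p = 9.19e-23). PPARG and DGAT2 changed by 1.15 and 1.14, and PLIN2, the lipid droplet coat protein, which stood at 16995 ± 683 with HIF-2α and 7544 ± 468 in WT, by -1.15. FASN, fatty acid synthase, was not called at a change of 0.76.

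Chemokine and cytokine genes held 3 higher and 2 lower of 26 (median 0.11), and 4 lower without HIF-2α replicate 1. The receptors CXCR4 and ACKR3, which share the ligand CXCL12, were the lower pair. ACKR3 gave 34051, 32764 and 31570 normalized counts with HIF-2α and 2240, 2034 and 1780 with HIF-2α/1α (log2 change -4.02, SE 0.07, adjusted p = 8.47e-38), and 781 ± 41.4 in WT. CXCR4 gave 218, 275 and 124 and 14.2, 13.8 and 4.44 (log2 change -4.22, SE 0.41, adjusted p = 2.35e-11). Both receptors were higher in every HIF-2α library. The ligands IL18, CCL2 and CSF1 were the higher ones, changed by 2.01, 1.75 and 1.65, and stood in WT at 666 ± 58.0, 624 ± 64.8 and 28777 ± 1164 against 144 ± 13.5, 96.8 ± 31.1 and 10651 ± 1089 with HIF-2α. Of 24 genes of the TGF-β and activin family 2, TGFB2 and GDF15, were higher and 2 lower (median -0.315), and between 0 and 1 were higher without HIF-2α/1α replicate 1 or 3 or HIF-2α replicate 1 or 2. NOG, an inhibitor of BMP ligands, fell from 1372 ± 75.6 with HIF-2α to 192 ± 39.3 with the chimera (log2 change -2.84, SE 0.11, adjusted p = 8.83e-25), and INHBB, an activin subunit, changed by -1.27. TRIB3, a stress-induced pseudokinase, was the 1 called of 22 unfolded protein and amino acid stress genes (change -1.11, list median -0.03). Of 25 interferon-stimulated genes 6 were lower (median -0.25), with IFI6 at 5499, 5279 and 7173 with HIF-2α and 2012, 2034 and 2379 with HIF-2α/1α (log2 change -1.48, SE 0.09, adjusted p = 3.88e-17) and OAS1 at 592, 441 and 986 and 199, 239 and 318 (log2 change -1.41, SE 0.20, adjusted p = 3.89e-07). In both genes HIF-2α replicate 3 was the highest, and without it 3 of the 25 were called lower.

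Of 13 genes for HIF coactivators and CITED proteins (median -0.04), of 14 oxygen-dependent histone demethylases (median 0.08) and of 21 sterol synthesis genes (median 0.13) none was called by edgeR or DESeq2. An unadjusted p under 0.05 by edgeR was found for 6, 7 and 12 of them, beside 8918 of all 28724 genes tested. Of 11 collagen hydroxylases and lysyl oxidases (median -0.23) LOX was called, while P4HA1 changed by 0.33 and LOXL2 by -0.94, short of the 2-fold limit. Of 13 iron and heme genes (median 0.17) 1, CP, was lower, and its call was lost without HIF-2α replicate 3. Of 16 kidney and tumour line markers (median 0.16) 2 were higher and 1, the membrane peptidase MME, was lower (change -2.05). With DESeq2, or without HIF-2α/1α replicate 1 or HIF-2α replicate 2, 1 of them was called higher.

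**Figure D4:**
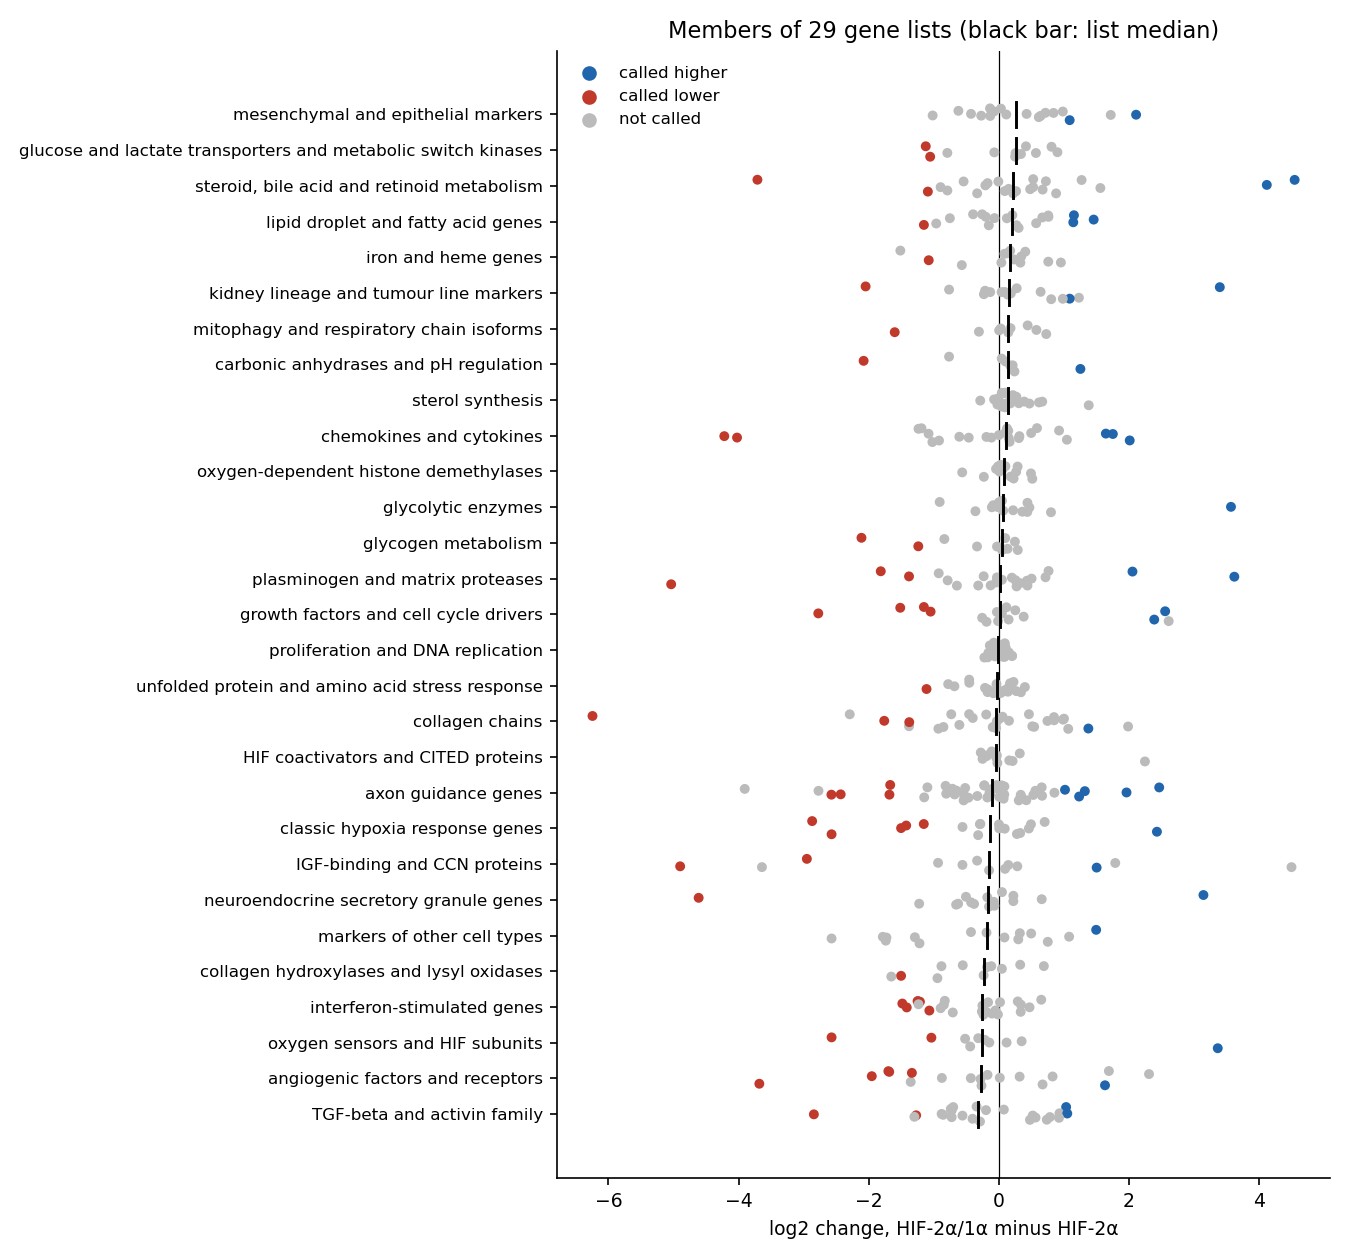
The log2 change, HIF-2α/1α minus HIF-2α, of each tested member of 29 gene lists, sorted by list median (black bar); members called higher are blue, called lower red and not called grey. The medians lie between -0.315 and 0.271, while single members reach beyond 4 in either direction.

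Both lines derive from 786-O cells, and their transgene proteins share the DNA-binding domain. Promoters, the 250 bases before the annotated start, are shown for 6 genes so that the core letters can be seen beside opposite responses. For CPE and ALDOC the RefSeq start lies inside the gene span given above. That span holds all of the CPE window and part of the ALDOC window. The 6 sequences come from RefSeq (GRCh38.p14) and are written 5′ to 3′ on the strand of the gene. Capitals mark each ACGTG or GCGTG on either strand, which reads CACGT or CACGC where it lies on the other strand; where both strands of a palindrome match, the letters overlap. ALDOC (chr17:28576896-28577145, minus strand) and PPFIA4 (chr1:203026241-203026490, plus strand) were higher with HIF-2α/1α.
ALDOC: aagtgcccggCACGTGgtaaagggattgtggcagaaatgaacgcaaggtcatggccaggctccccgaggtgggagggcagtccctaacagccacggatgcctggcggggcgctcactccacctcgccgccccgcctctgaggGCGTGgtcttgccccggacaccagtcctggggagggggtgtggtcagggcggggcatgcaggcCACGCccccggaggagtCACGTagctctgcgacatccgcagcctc
PPFIA4: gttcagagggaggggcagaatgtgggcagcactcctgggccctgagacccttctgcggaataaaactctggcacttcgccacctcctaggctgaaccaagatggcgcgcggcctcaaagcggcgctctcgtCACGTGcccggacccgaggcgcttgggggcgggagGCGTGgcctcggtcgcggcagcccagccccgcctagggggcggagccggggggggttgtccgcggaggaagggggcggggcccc

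CPE (chr4:165378758-165379007, plus strand) and HSD3B7 (chr16:30984957-30985206, plus strand) were lower with HIF-2α/1α.
CPE: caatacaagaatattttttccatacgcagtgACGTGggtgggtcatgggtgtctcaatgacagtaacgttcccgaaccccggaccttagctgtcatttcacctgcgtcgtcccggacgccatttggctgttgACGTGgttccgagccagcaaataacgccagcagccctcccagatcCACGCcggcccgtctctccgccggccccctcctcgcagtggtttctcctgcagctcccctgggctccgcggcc
HSD3B7: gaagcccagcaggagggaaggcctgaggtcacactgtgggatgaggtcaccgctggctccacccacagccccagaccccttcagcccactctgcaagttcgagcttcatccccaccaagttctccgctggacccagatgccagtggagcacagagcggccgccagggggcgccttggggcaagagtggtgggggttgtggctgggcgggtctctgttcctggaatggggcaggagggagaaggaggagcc

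CA9 (chr9:35673678-35673927, plus strand) and BNIP3 (chr10:131981924-131982173, minus strand), described below, were far higher with full-length HIF-1α than with the chimera.
CA9: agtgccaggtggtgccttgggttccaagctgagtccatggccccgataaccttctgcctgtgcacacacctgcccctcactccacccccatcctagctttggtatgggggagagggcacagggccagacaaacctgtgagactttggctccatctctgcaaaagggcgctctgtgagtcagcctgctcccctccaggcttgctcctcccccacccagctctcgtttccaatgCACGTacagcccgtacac
BNIP3: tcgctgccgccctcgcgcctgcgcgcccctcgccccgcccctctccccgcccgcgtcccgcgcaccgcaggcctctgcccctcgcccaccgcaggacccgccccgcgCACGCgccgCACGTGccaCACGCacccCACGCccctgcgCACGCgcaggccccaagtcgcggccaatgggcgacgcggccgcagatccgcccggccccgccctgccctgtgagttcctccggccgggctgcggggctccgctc

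In these windows ALDOC held 3 matches to ACGTG and 2 to GCGTG, PPFIA4 2 and 1, CPE 2 and 1, HSD3B7 0 and 0, CA9 1 and 0, and BNIP3 2 and 4. Of all 35116 RefSeq promoters of this length 43.2% held at least 1 of the motifs, so that a match is common. For HSD3B7 the study places the isoform-dependent binding at an enhancer, so its 0 and 0 describe this window only. Each strand of a palindrome was counted, so the 2 ACGTG matches of PPFIA4 are 1 CACGTG, while those of CPE are 2 separate sites. ALDOC and BNIP3 also hold such a palindrome. Promoters could be matched for 62.4% of the genes called higher and 57.9% of those called lower, too few for a share over these genes.

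The same exchange of the IDR on the other structured domain, HIF-1α minus HIF-1α/2α, was measured in 6 separate libraries. In that comparison 831 genes were higher with HIF-1α (2.89% of 28724) and 505 lower (1.76%). Of the 399 genes higher with HIF-2α/1α, 285 (71.4%) were also called higher there, 1 was called lower, and 365 (91.5%) had the same sign. The 285 are 34.3% of the 831. Of the 516 genes lower with HIF-2α/1α, 280 (54.3%) were also called lower, 5 were called higher, and 472 (91.5%) had the same sign, and the 280 are 55.4% of the 505. Over the 14101 genes with a mean of at least 50 normalized counts, 73.2% had the same sign. The median change of the higher genes was 1.60 on the HIF-2α domain and 1.69 on the HIF-1α domain, and of the lower genes -1.69 and -1.31. Across the 656 called genes at that level Pearson's r between the changes was 0.893 and Spearman's rho 0.878, and across all 14101 they were 0.759 and 0.623; genes are not independent replicates and all 12 libraries share a batch. In both exchanges the line with the HIF-2α IDR had the higher transgene estimate per codon, and the part of dose in this likeness was not tested. In batch 1, full-length HIF-1α against full-length HIF-2α, which differ in both the structured domain and the IDR, gave 342 genes higher with HIF-1α (1.46% of 23410) and 219 lower (0.935%). Of 394 higher genes tested there, 181 (45.9%) were called higher and 376 (95.4%) had the same sign, and of 503 lower genes 174 (34.6%) were called lower and 457 (90.9%) had the same sign. The share of the same sign was 69.7% over 14081 genes. Same-numbered batch 1 libraries deviated together, most clearly those of replicate 3. Blocking on that number gave 528 genes higher with HIF-1α (2.26%) and 269 lower (1.15%). With the block, 239 (60.7%) of the 394 were called higher and 211 (41.9%) of the 503 lower.

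Among genes called in both exchanges with a mean of at least 50 normalized counts over the 12 libraries, those with the largest change in both were ALDH1A1, CLDN2 and ALDOC on the higher side and CASP14, LHX5 and SYN3 on the lower. ALDH1A1 changed by 4.12 on the HIF-2α domain, by 3.95 on the HIF-1α domain and by 3.87 in batch 1. CLDN2 changed by 3.77, 3.75 and 3.89 in the same order. Among the abundant HIF-2α genes, EGLN3 changed by -2.57, -2.59 and -2.21, PLXNA2 by -2.43, -2.39 and -2.90, and VEGFA by -1.70, -1.79 and -1.36. For EGLN3, PLXNA2, VEGFA, ALDH1A1 and CLDN2 the interaction, the difference between the 2 exchanges, was not called. CASP14 and LHX5 were far higher with HIF-1α/2α, at 5711 ± 154 and 4146 ± 437, than with HIF-2α, and stood at 0.316 and 0 with HIF-1α.

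Where the exchanges differed, the interaction was positive for 89 genes (0.31% of 28724) and negative for 249 (0.867%). A negative value means that the change from the HIF-2α IDR to the HIF-1α IDR was lower on the HIF-2α domain than on the HIF-1α domain. CA9, the carbonic anhydrase used as a hypoxia marker, was the clearest case: the HIF-2α/1α libraries held 5.91, 3.45 and 4.44 normalized counts, the HIF-2α libraries 9.91, 5.77 and 7.04 and the HIF-1α libraries 2095, 2112 and 1938, with HIF-1α/2α at 136 ± 14.3 (interaction -4.67, SE 0.50, adjusted p = 4.58e-09). BNIP3, a mitophagy receptor, gave 8058, 8205 and 8445 with the chimera, 6176, 5811 and 6183 with HIF-2α and 46154, 46840 and 42306 with HIF-1α, with HIF-1α/2α at 7601 ± 166 (interaction -2.13, SE 0.07, adjusted p = 1.84e-25). Both genes were high in the HIF-1α libraries, and the chimera with the same IDR was not called against WT for BNIP3 (7766 ± 216 in WT, log2 change 0.08). CA9 had no read in the 3 WT libraries. For ALDOC and PPFIA4 the chimera did raise the gene, but the change was 3.57 and 2.43 on the HIF-2α domain against 5.01 and 3.63 on the HIF-1α domain, where HIF-1α/2α stood at 103 ± 7.92 and 296 ± 42.7 (interactions -1.44 and -1.20).

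MXI1 and LOX were lower with HIF-2α/1α than with HIF-2α but not called between HIF-1α and HIF-1α/2α (changes 0.03 and -0.10, interactions -1.63 and -1.40). PGF and IGFBP5 were lower with the HIF-1α IDR in both exchanges but further on the HIF-2α domain, with changes of -3.68 against -1.83 and of -4.90 against -2.07. PTGIS, prostacyclin synthase, had the most negative interaction, -6.05: it stood at 51.0 ± 18.2 with HIF-2α/1α, 121 ± 10.1 with HIF-2α, 183 ± 13.2 with HIF-1α and 6.34 ± 4.26 with HIF-1α/2α. RNASE1, a secreted ribonuclease, and GRIN2A, an NMDA receptor subunit, followed with -5.07 and -4.79. On the positive side, GLUL, glutamine synthetase, and COL5A1 stood out with HIF-1α/2α, at 925 ± 96.8 and 1192 ± 64.7 against 25.6 ± 11.8 and 103 ± 14.4 with HIF-2α/1α and 54.6 ± 17.0 and 56.8 ± 16.2 with HIF-2α (interactions 4.14 and 3.57). NKX2-5, a homeobox factor of the heart, was at 46.0 ± 23.7 with HIF-2α/1α and 7.46 ± 2.74 with HIF-2α (interaction 3.04). The per-codon estimates for HIF-1α/2α, 26.0 from HIF1A and 76.8 from EPAS1, lay on either side of the 34.4 of HIF-2α, so that its rank beside HIF-2α is not settled. Both estimates lay above the 15.6 of HIF-1α, so in each exchange the line with the HIF-2α IDR had the higher estimate. The part of the dose in these differences was not tested.

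**Figure D5:**
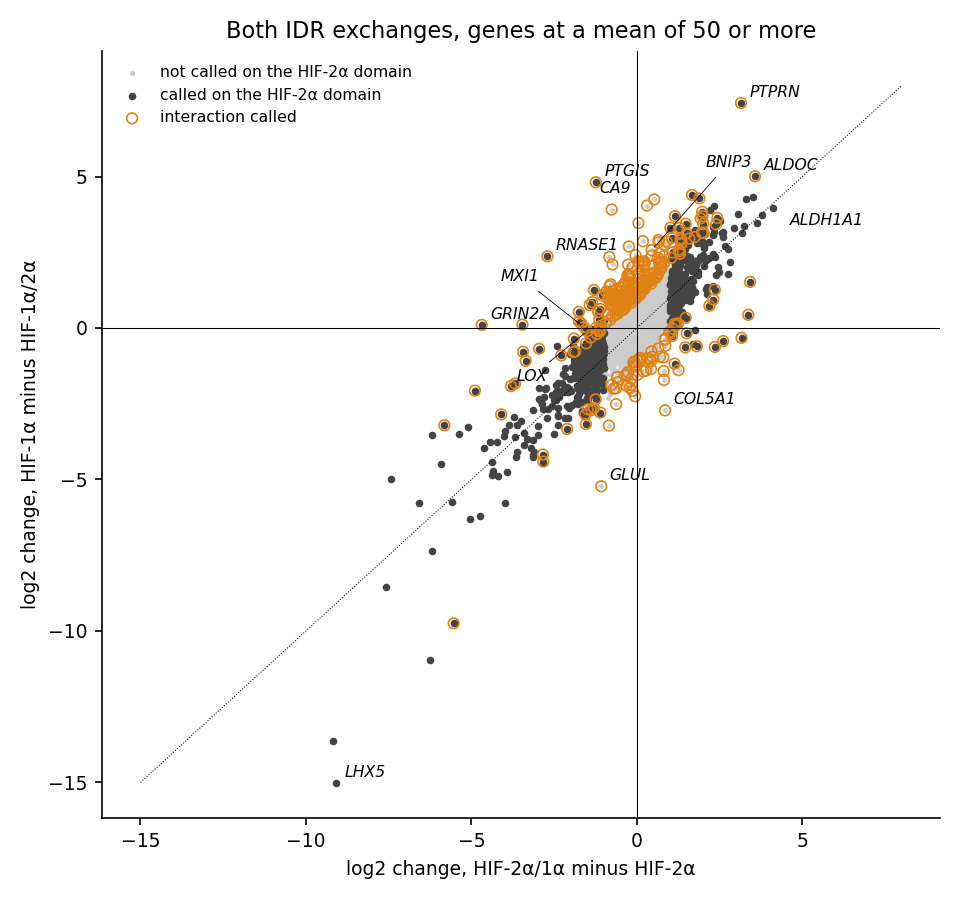
The log2 change of each gene with a mean of at least 50 normalized counts in the IDR exchange on the HIF-2α domain (horizontal) and on the HIF-1α domain (vertical); the dotted line marks equal changes. Genes called on the HIF-2α domain are dark and lie along the line (slope 1.00 over 656 genes), and orange rings mark genes called in the interaction, such as CA9 and BNIP3 above it and GLUL and COL5A1 below it.

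Reads were counted without regard to strand, in the union mode of HTSeq. The values of a gene that overlaps a gene on the opposite strand may therefore be altered by that partner. Reads that fall on both genes may be lost, and reads of the partner elsewhere may be included. Among the genes given here library by library, this holds for HIF1A, CPE, HSD3B7, PLXNA2, GFRA2, LHX5, ALDOC, ALDH1A1, KCNJ16, EGLN3, VEGFA, PGK1, CA2, CCND1, IGFBP5, COL23A1, PTPRN, IFI6, OAS1, CA9 and BNIP3.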

How the data were processed

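Poly-A RNA-seq libraries of batch 2 were prepared from TRIzol-extracted RNA with NEBNext kits. The authors aligned reads to hg38 with STAR, keeping unique alignments, and deposited raw counts per gene from HTSeq, run without strand on GENCODE annotation; their processing notes name STAR 2.7 and HTSeq 0.11.1. Total counts per library are given above; intervals on low counts cover counting error only.

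From these counts, all 15 batch 2 libraries were fitted together with edgeR 4.0.16 (quasi-likelihood test, TMM) in R 4.3.3, keeping genes whose normalized counts averaged 0.5 or more over the batch. Calls needed a Benjamini-Hochberg adjusted p of at most 0.01 and a 2-fold change, and all adjusted p-values are from this test unless another is named. Batch 1 (27 libraries) was fitted separately. Replicate numbers were checked as pairs by the correlation of deviations from the group means. In batch 1, HIF-1α and HIF-2α libraries of the same number correlated at 0.207, 0.102 and 0.406 over 23410 genes. HIF-1α replicate 2 correlated at 0.119 with HIF-2α replicate 1, above its value with replicate 2. The other pairs of unlike number lay between -0.286 and 0.0729. In batch 2, HIF-2α/1α and HIF-2α correlated at 0.00862, -0.00295 and -0.0075 over 28724 genes and, in a check chosen after seeing the data, at 0.105, 0.164 and 0.11 over 14036 genes with a mean of at least 50. The main fit has no block. Normalized counts are TMM-scaled to the mean library size of the batch. On counts simulated for 28724 genes the test recovered 100 of 100 genes changed by 2 and 98 of 100 changed by 1.5 on the log2 scale. There were 0 false calls among the unchanged genes. The changed genes all had a fitted mean of at least 50 and the counts followed the fitted dispersions, so recovery at lower counts was not tested.

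Named genes were HIF1A, EPAS1, ARNT and the genes whose RNA-seq the study displays, the 10 most changed in each direction (mean of at least 50, no overlap), the most changed and most abundant members of 29 lists, the 5 largest interactions in each direction and the 3 largest changes shared by both exchanges (both with a mean of at least 50). EGFR, ADM and the 6 promoters were chosen after values were seen. Members and lists were chosen with earlier results of these data known. Alternatives were DESeq2 1.42.0, median-ratio size factors, no filter, the replicate number as a block, the 6 libraries alone and each library left out. No protein sequence was used here.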

Additional observations from a re-analysis of the deposited data

Results flagged for a closer look

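By the interaction test of the edgeR fit, the change between the lines of an IDR exchange differed between the 2 structured domains. It did so for 89 genes in the positive and 249 in the negative direction. A positive value means a higher change on the HIF-2α domain. Among the genes that are described or were followed, the interaction (log2) was positive for SH2D1B (4.21), GLUL (4.14), COL5A1 (3.57), SNORD3A (3.49), NKX2-5 (3.04), HIF1A (2.93), AOAH (1.898) and NOG (1.33). HIF1A is copied by 3 of the 4 transgenes, so that its value describes the constructs. SNORD3A, a small nucleolar RNA, rests on 1 library: its HIF-2α/1α libraries held 89.9, 50.9 and 2036 normalized counts against 92.2, 78.5 and 70.4 with HIF-2α, and without replicate 3 the interaction was 0.11. Without the same library the SH2D1B interaction was 3.57 and no longer called (adjusted p = 0.0821).

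The interaction was negative for the growth and signalling genes EREG (-1.03), IL18 (-1.13), SEMA3F (-1.18), CCN3 (-1.62), PGF (-1.85) and IGFBP5 (-2.83). It was negative for the metabolic and hypoxia genes PPFIA4 (-1.20), LOX (-1.40), ALDOC (-1.44), MXI1 (-1.63), BNIP3 (-2.13), CA9 (-4.67) and PTGIS (-6.05). The others were IFI27 (-1.01), ALPG (-2.61), PTPRN (-4.28), GRIN2A (-4.79) and RNASE1 (-5.07). The EREG, IFI27 and IL18 values slipped under the 2-fold limit when single libraries were left out (lowest size -0.83, -0.84 and -0.81), and the adjusted p of ALPG rose to between 0.0123 and 0.0509 without HIF-1α replicate 1 or 2 or HIF-2α/1α replicate 2.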

How the results depend on the processing

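The counts of called genes stayed within 1.5 times of those given above under DESeq2, median-ratio size factors, no filter and the 6 libraries alone. DESeq2 called 386 genes higher and 538 lower with HIF-2α/1α, of which 377 and 510 were among the 399 and 516. Leaving out 1 library gave 343 to 407 higher and 438 to 523 lower genes, 73 to 92 positive and 214 to 263 negative interactions. With the replicate number as a block, 437 genes were higher and 565 lower with HIF-2α/1α, and in batch 1 528 genes were higher with HIF-1α in place of 342. Of 107 genes followed in the main comparison, 95 kept direction and side of the threshold under every alternative. EPAS1, EGFR, LUM, PDGFD, PPP1R3B, CP, COL9A2, MMP7, TGFB2, GDF15, GLUL and SNORD3A did not. The block changed the call of 1 of the 107, GLUL (log2 change -1.08, adjusted p = 0.0155 by edgeR; -1.12 and 8.13e-05 with the block), which also passed with no filter and without HIF-2α/1α or HIF-2α replicate 3. Values near 0 changed sign when 1 library was left out, and the cause was not tested: HIF-1α minus HIF-1α/2α lay between -0.074 and 0.121 for MXI1, between -0.21 and 0.0069 for LOX and between -0.12 and 0.266 for GRIN2A. SNORD3A, HIF-2α/1α minus HIF-2α, lay between -0.203 and 3.72, the lower value without HIF-2α/1α replicate 3. With 3 libraries of 1 line a group, what belongs to the IDR and what to the line or its transgene level cannot be told apart.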
